A study of Mus musculus with 6 samples.

Results

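The tripartite motif (TRIM) family was read out as the 63 genes whose array symbol is Trim followed by a number, with or without a letter, of 30176 genes measured. Each gene was represented by the row of the array with the highest mean over 6 arrays among rows that carry 1 gene symbol, and every one of the 63 members had a single such row. A further 4 rows name a TRIM gene together with another symbol (Trim17 with H2aw, Trim34b with Trim34a, Trim61 with Trim60, and Trim13 with Gm9359) and were not counted as members. The arrays, Affymetrix Mouse Transcriptome Arrays, hold RNA of embryos from B6C3F1 females mated with CD1 males. All zygotes were injected in the ooplasm with dextran beads and mCherry-Trim21 mRNA, which encodes TRIM21 fused to a red fluorescent protein. The first control group, called mCherry-Trim21 mRNA, received nothing else. The other control group was given anti-GFP, which finds no target in wildtype embryos. The third group was given anti-TEAD4, which binds a factor needed to form the trophectoderm, the outer epithelium of the blastocyst. Each group had 2 pools (a and b) of 10 embryos, all injected on the same day and sampled 72 h after injection, after 96 h of culture and at 4 dpc by the labels. The labels describe a normal cavity in the control embryos, and an absent or small and aberrant cavity in the embryos given anti-TEAD4. The titles call the control pools blastocysts and the anti-TEAD4 pools morulae/blastocysts, so stage and treatment cannot be told apart. No source says that the pools of a group were injected separately, so p-values measure the spread between pools of embryos handled alike.

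Most TRIM proteins carry a RING domain, 1 or more B-box domains and a coiled coil, and most act as E3 ubiquitin ligases. These ligases bring a ubiquitin-loaded conjugating enzyme to a substrate chosen by the C-terminal domain. In TRIM21 that domain grips the constant part of antibodies, so that an antibody and what it holds are ubiquitinated and sent to the proteasome. Many relatives work in antiviral sensing and interferon signalling, while the TIF1 members (Trim24, Trim28, Trim33, Trim66) bind chromatin and the Trim43 copies are active in the preimplantation embryo.

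The promoters of 3 members described below are shown as examples with and without the core motif of the TEAD factors. Each run is the 250 bases before a RefSeq start of the gene in GRCm38.p6, read 5′ to 3′ on the gene's strand, with matches to CATTCC or, on the other strand, GGAATG in capitals. Trim7 (chr11:48825888-48826137, + strand, the first of 2 starts) has 1 match, which begins 122 bases before the start, and its second start has none in its window. Trim38 (chr13:23782291-23782540, + strand) has 1 match at the far end of the window, 250 bases before the start. This start lies inside the annotated span of Trim38 (23778500 to 23791731), and the bases before that span were not searched. Trim25 (chr11:88999153-88999402, + strand) has 0 matches.
Trim7: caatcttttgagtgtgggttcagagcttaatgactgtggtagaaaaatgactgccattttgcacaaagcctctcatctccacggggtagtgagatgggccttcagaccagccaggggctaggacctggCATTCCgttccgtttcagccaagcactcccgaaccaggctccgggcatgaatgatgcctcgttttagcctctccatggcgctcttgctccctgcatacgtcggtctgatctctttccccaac
Trim38: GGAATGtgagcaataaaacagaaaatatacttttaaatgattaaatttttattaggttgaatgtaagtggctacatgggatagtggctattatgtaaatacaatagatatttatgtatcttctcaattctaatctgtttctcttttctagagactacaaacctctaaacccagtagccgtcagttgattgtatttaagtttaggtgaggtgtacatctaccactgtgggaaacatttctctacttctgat
Trim25: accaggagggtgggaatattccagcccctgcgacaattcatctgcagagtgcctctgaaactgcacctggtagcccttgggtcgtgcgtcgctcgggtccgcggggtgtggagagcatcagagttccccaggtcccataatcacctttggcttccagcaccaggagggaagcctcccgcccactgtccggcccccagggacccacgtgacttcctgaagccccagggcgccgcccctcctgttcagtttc

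RefSeq promoters were found for 49 of the 63 members, 63 promoters in all. The TEAD motif was in 11 of these 63 (17.5%), which belong to 10 members (Trim7, Trim15, Trim23, Trim30a, Trim30d, Trim38, Trim46, Trim54, Trim63 and Trim69), against 12.6% of all 32851 promoters of the same length. The core of the interferon-stimulated response element, searched as GAAA, any 2 bases and GAAA on either strand, was in 5 of the 63 (7.94%), those of Trim5, Trim12c, Trim26, Trim30a and Trim30d, against 2.98% of all promoters. Of the members described below, Trim7 (higher in both anti-TEAD4 pools), Trim38 (higher in 1 pool) and Trim23 (lower in 1 pool) had a TEAD match. Trim30a, Trim30d, Trim46, Trim54 and Trim63, also named below, had a match too. Others, Trim21 and Trim25 among them, had none. A match describes these letters only and not the binding of a factor.

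Signal of the array at genes that an embryo is not thought to use was taken from 1716 olfactory and vomeronasal receptor genes, whose 95th percentile of the 6-array mean was a log2 intensity of 4.53. By that level 35 of the 63 members were above background and 28 were not. The anti-TEAD4 a array stood apart: its mean correlation with the other arrays over all genes was 0.975 (0.986 to 0.989 for the others), and its receptor genes lay 0.24 above those of the other arrays on the log2 scale (-0.12 to 0.02 for the others). The antibody acts on the TEAD4 protein, so the Tead4 transcript cannot check the label of the treatment. Tead4 was at 8.44 and 8.95 in the anti-TEAD4 pools and 9.16 to 9.40 in the 4 control pools. The limma difference from both control groups was -0.62 ± 0.18 (SE, adjusted p = 0.496). Of the trophectoderm markers, Cdx2 was at 9.73 and 10.45 with anti-TEAD4 against 11.68 to 12.08 in the controls. Gata3, Krt8 and Krt18 were also below all controls in both pools. Eomes was at 8.37 and 9.79 against 9.80 to 9.97, and Tfap2c overlapped (7.77 and 7.55 against 7.56 to 8.36). Of the inner cell mass markers, Pou5f1 and Nanog overlapped the controls and Sox2 was above them (9.21 and 9.22 against 8.32 to 8.97). Of 3 primitive endoderm markers Gata6 was at 12.90 and 12.92 against 12.39 to 13.10, while Gata4 and Sox17 were not above the receptor level. Of 4 leukocyte markers only Cd68 was above that level (9.57 and 9.06 with anti-TEAD4, 7.27 to 9.00 in the controls), and of 6 cumulus cell markers only Has2 and Amhr2 were; their part in the values below was not tested.

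In the limma fit over all 30176 genes, 0 of the 63 members passed an adjusted p of 0.05 in any of 4 comparisons, and neither did any other gene (0% of all genes). The lowest adjusted p of a member was 0.249, for Trim7 in anti-TEAD4 against both control groups. At an unadjusted p under 0.05, that comparison had 3 members higher (Trim21, Trim7 and Trim50, where 4.06% of all genes were higher) and 2 lower (Trim25 and Trim12c, where 4.45% of all genes were lower). Against mCherry-Trim21 mRNA alone, anti-TEAD4 had 2 higher (3.18% of all genes) and 1 lower (3.33%), and against anti-GFP 2 higher (2.84%) and 2 lower (3.76%). Anti-GFP against mCherry-Trim21 mRNA had 1 higher (0.742%), Trim21, and 0 lower (0.351%). In either direction, anti-TEAD4 had 5 members against both control groups (8.51% of all genes), 4 against anti-GFP (6.6%) and 3 against mCherry-Trim21 mRNA (6.51%), and anti-GFP 1 (1.09%). These counts lie near the shares of all genes, the 4 comparisons share samples, and the differences below are described as values.

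Trim21, whose signal can hold the injected mRNA as well as the embryo's own transcript, had log2 intensities of 9.05 and 7.56 in the mCherry-Trim21 mRNA pools, 10.16 and 10.60 in the anti-GFP pools, and 12.11 and 11.47 in the anti-TEAD4 pools. The 3 groups did not overlap, with the anti-TEAD4 pools highest and the pools without antibody lowest. In linear units (AU) the means were 359 ± 241, 1348 ± 288 and 3629 ± 1120 (SD, n = 2 each). The difference between anti-GFP and mCherry-Trim21 mRNA was 2.08 ± 0.52 (SE) on the log2 scale, 4.21-fold, with adjusted p = 1. That between anti-TEAD4 and mCherry-Trim21 mRNA was 3.49 ± 0.52, 11.2-fold, with adjusted p = 0.386. That between anti-TEAD4 and anti-GFP was 1.41 ± 0.52, 2.66-fold, with adjusted p = 0.738. The pools without antibody differed from each other by 1.49, more than the 2 antibody groups differed from each other, and no other member differed by 1 or more between these pools. How much of this signal was injected mRNA and how much was embryonic cannot be told apart on these arrays. Both anti-GFP pools were above both mCherry-Trim21 mRNA pools for 17 of the 63 members, Trim21 among them (17.4% of all genes were), and below both for 9 (11.3% of all genes).

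**Figure D1:**
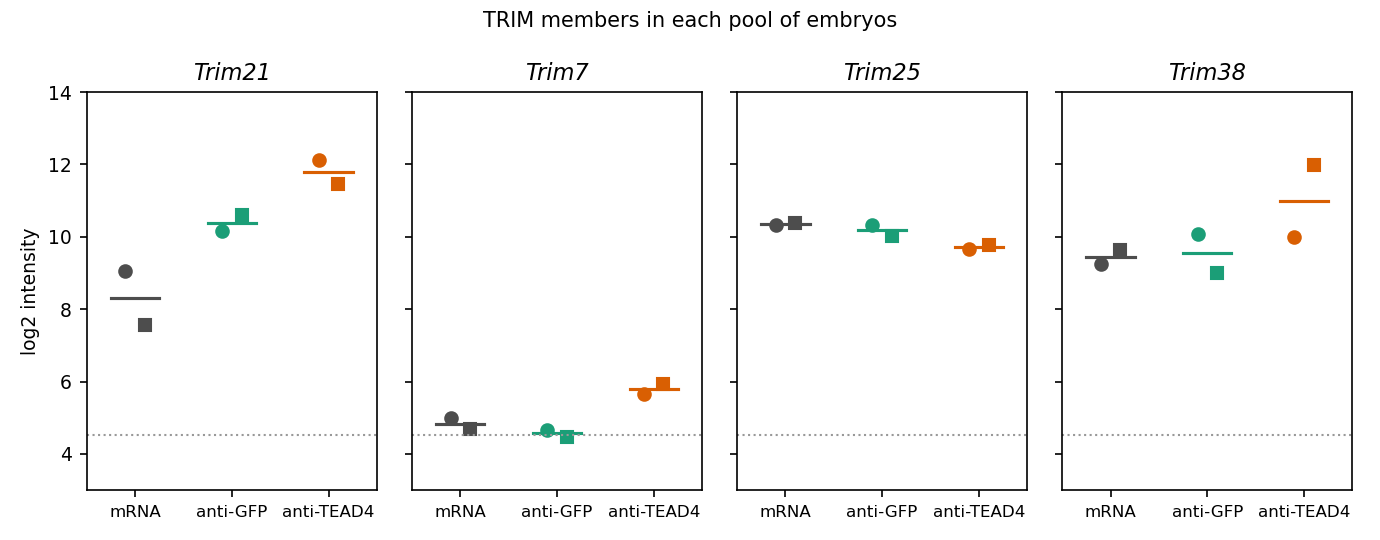
Log2 intensity of Trim21, Trim7, Trim25 and Trim38 in each pool (circle, pool a; square, pool b; line, group mean of 2 pools; dotted line, the receptor level of 4.53; mRNA, mCherry-Trim21 mRNA). Trim21 separates all 3 groups, Trim7 is higher and Trim25 lower in both anti-TEAD4 pools than in the 4 control pools, and Trim38 is high in 1 anti-TEAD4 pool.

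Trim7, a ligase that binds glycogenin and acts on viral proteins, was at 5.65 and 5.93 in the anti-TEAD4 pools, at 4.99 and 4.68 in the mCherry-Trim21 mRNA pools, and at 4.66 and 4.48 in the anti-GFP pools. Both anti-TEAD4 pools were above all 4 control pools, which lay close to the receptor level. Against both control groups the difference was 1.09 ± 0.17 (SE), 2.13-fold, with adjusted p = 0.249, and without each array in turn it ranged from 0.95 to 1.23. Trim50, a ligase known from the acid-secreting cells of the stomach, had 4.74 and 4.55 with anti-TEAD4 and 4.22 to 4.36 in the controls, a difference of 0.34 ± 0.13 (adjusted p = 0.585). Its mean was not above the receptor level, and in no array did it pass that array's own 95th percentile.

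Trim25, which attaches ubiquitin to the viral RNA sensor RIG-I, was the clearest of the members with less signal after anti-TEAD4. It was at 9.65 and 9.77 in the anti-TEAD4 pools, at 10.33 and 10.39 in the mCherry-Trim21 mRNA pools, and at 10.32 and 10.03 in the anti-GFP pools. Both anti-TEAD4 pools were below all 4 control pools. The difference from both control groups was -0.56 ± 0.14 (SE), 1.47-fold lower, with adjusted p = 0.441, and it ranged from -0.63 to -0.49 without each array in turn. In pools of whole embryos, fewer cells of a type and less RNA per cell cannot be told apart. Trim12c, a rodent relative of the antiretroviral factor TRIM5, was at 5.89 and 6.27 with anti-TEAD4, 6.27 and 6.49 in the mCherry-Trim21 mRNA pools, and 6.59 and 6.92 in the anti-GFP pools. Its groups touched at 6.27, and the difference from both control groups was -0.49 ± 0.18 (adjusted p = 0.579). Trim12a, Trim12c and Trim5 are close relatives in the same stretch of chromosome 7, and probes for one may pick up another.

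Counted without a test, both anti-TEAD4 pools were above all 4 control pools for 8 of the 63 members (Trim7, Trim21, Trim29, Trim30b, Trim32, Trim50, Trim54 and Trim67), where 11.4% of all genes were. They were below all 4 for 4 members (Trim6, Trim25, Trim46 and Trim56), where 7.68% of all genes were. Among the 35 members above the receptor level the counts were 4 higher and 3 lower, against 7.8% and 12.5% of the 16082 genes above it. Taking one anti-TEAD4 pool at a time, whatever the other pool showed, the a pool was above the 4 control pools for 27 members and the b pool for 18 (40.6% and 26.3% of all genes), and they were below for 16 and 11 (28.7% and 18.5% of all genes). The median difference of the 63 members against both control groups was 0.07, beside 0.06 over all genes, and that of the 35 members above the receptor level was -0.053, beside -0.055 over all genes above it.

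**Figure D2:**
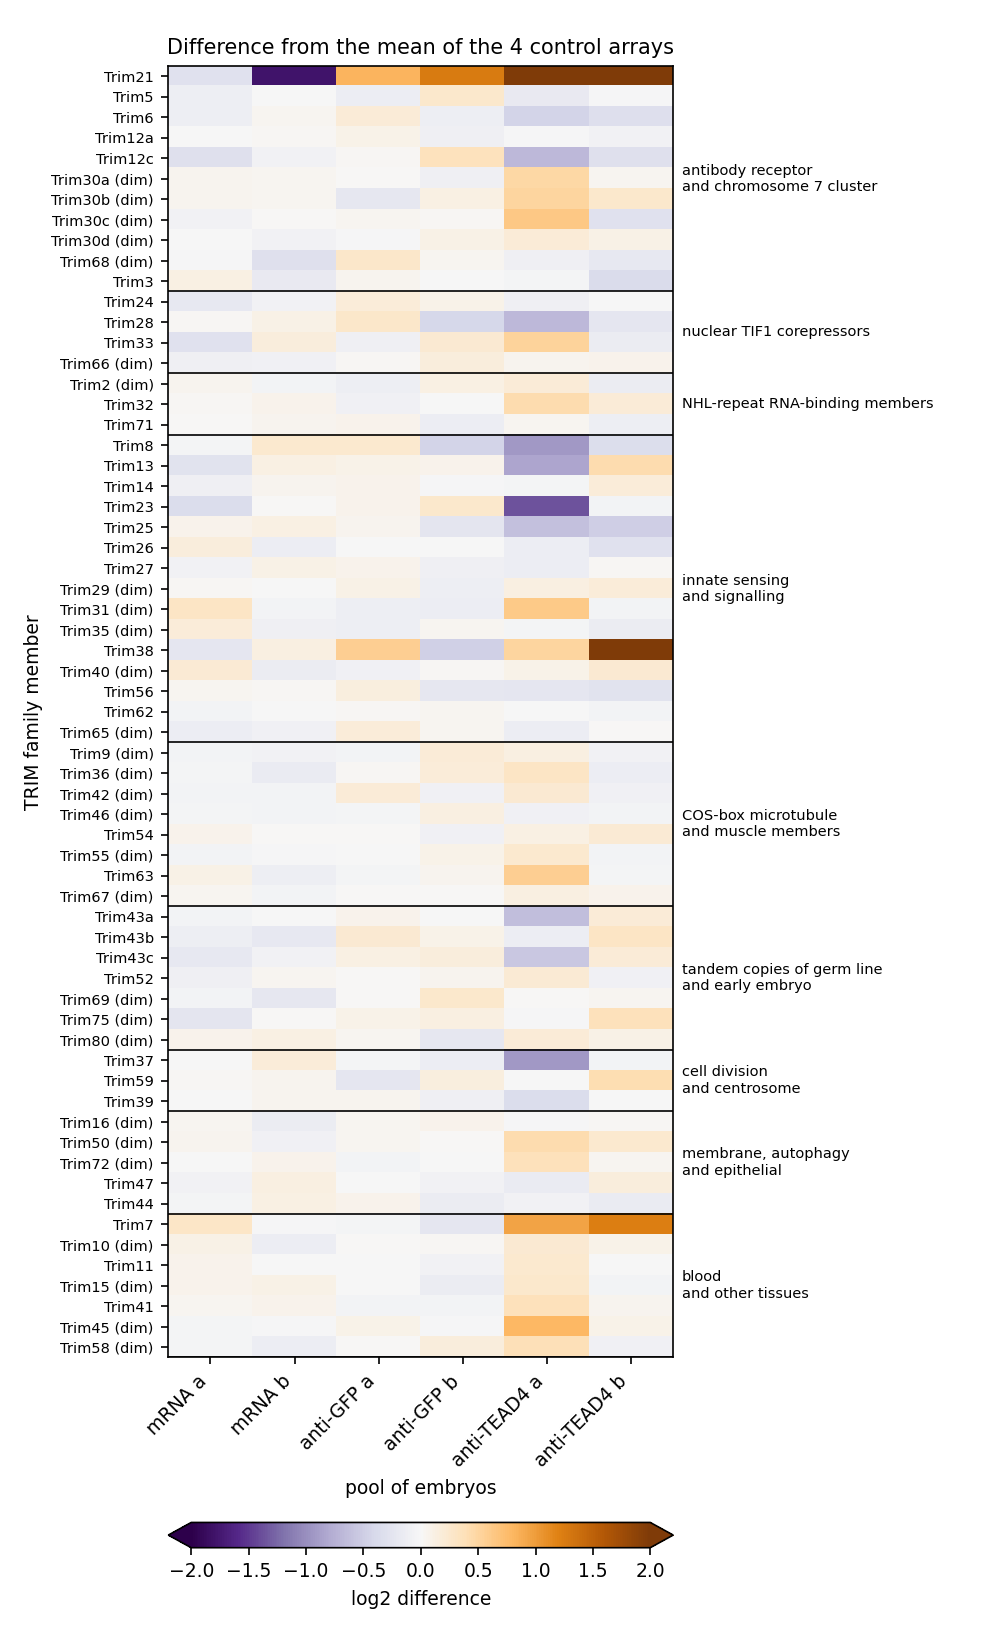
Difference of each pool from the mean of the 4 control arrays (log2, colour scale ending at -2 and 2) for the 63 members, grouped by role, with dim marking the 28 members not above the receptor level. A member with a place in 2 groups is drawn once. Trim21 and Trim7 are high in both anti-TEAD4 columns, Trim38 is high in the b pool, and Trim23 is low in the a pool.

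The spread between the anti-TEAD4 pools set the limit for several members. The median absolute difference between pools a and b over the members was 0.28 for anti-TEAD4, 0.1 for the mCherry-Trim21 mRNA group and 0.14 for anti-GFP, where all genes had 0.32, 0.15 and 0.18. The anti-TEAD4 pools differed by 1 or more in 3 members (4.76%, against 12% of all genes): Trim38, Trim23 and Trim13.

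Trim38, a brake on innate immune signalling, was at 10.00 and 11.99 in the anti-TEAD4 pools, at 9.26 and 9.63 in the mCherry-Trim21 mRNA pools, and at 10.07 and 9.01 in the anti-GFP pools. The b pool was above all 4 controls and the a pool was within their range. The difference from both control groups was 1.5 ± 0.61 (SE, adjusted p = 0.587), and was 0.51 without the b pool and 2.5 without the a pool. The anti-GFP pools also differed from each other by 1.06, the only member to do so by 1 or more.

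Trim23, which carries a C-terminal ARF-type GTPase domain, was at 5.91 and 7.22 with anti-TEAD4 and at 6.93 to 7.54 in the controls. Only the a pool was below the controls, and the difference of -0.71 ± 0.38 (adjusted p = 0.639) became -1.37 without the b pool (adjusted p = 0.0206, with a single anti-TEAD4 array assumed to vary like the others) and -0.055 without the a pool. Trim13, a ligase anchored in the endoplasmic reticulum, was at 8.86 and 10.12 with anti-TEAD4 and at 9.43 to 9.82 in the controls, so that its anti-TEAD4 pools lay on opposite sides of the controls. Of the 28 members not above the receptor level, 21 were higher in the anti-TEAD4 a pool than the control mean (82% of the genes not above that level were) and 15 in the b pool (53.6% of such genes). The receptor genes of that a array were raised as well, by the 0.24 given above.

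**Figure D3:**
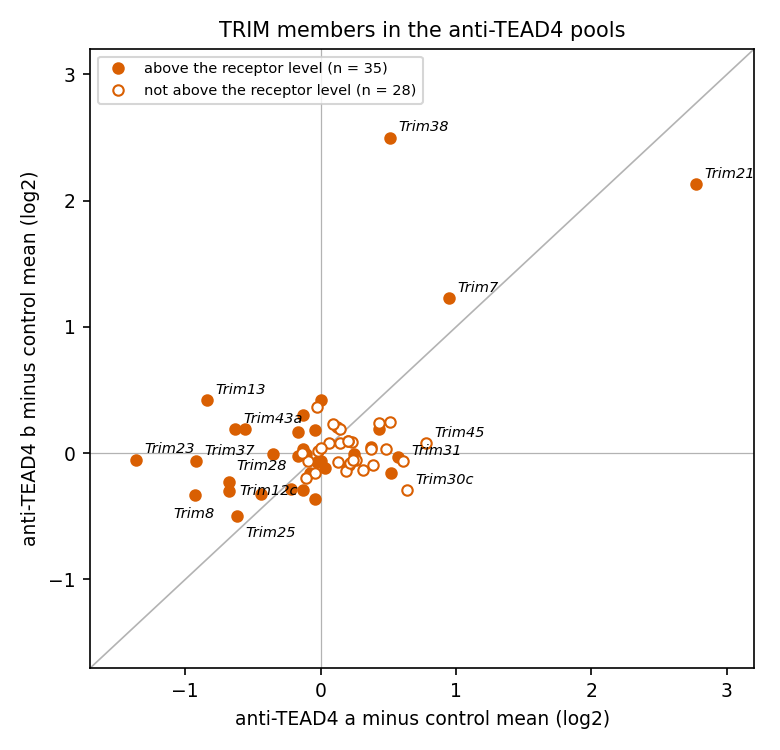
Difference from the control mean (log2) in the anti-TEAD4 a pool (horizontal axis) and the b pool (vertical axis) for the 63 members; filled, the 35 above the receptor level; open, the 28 not above it; the diagonal marks equal differences. Trim7 and Trim25 lie near the diagonal and Trim21 is high on both axes, whereas Trim38 departs in the b pool and Trim23 in the a pool.

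The chromosome 7 cluster and its relatives had 11 of 13 listed genes measured, 6 of them above the receptor level; 14 members in all lie on that chromosome. Beyond Trim21 and Trim12c none of these had an unadjusted p under 0.05, which 8.51% of all genes had against both control groups. Trim6, which builds unanchored ubiquitin chains in interferon signalling, was at 7.37 and 7.49 with anti-TEAD4 and at 7.69 to 8.01 in the controls, below all of them (-0.38 ± 0.15, adjusted p = 0.587). Trim5 was at 5.67 and 5.82 with anti-TEAD4 and at 5.71 to 6.11 in the controls, which overlapped. The Trim30a, Trim30b, Trim30c and Trim30d copies ranged from 3.62 to 4.55 over all arrays and were not above the receptor level. As related copies they may share probes.

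The nuclear TIF1 corepressors were above the receptor level in 3 of 4 cases and 0 of 4 had an unadjusted p under 0.05 in any comparison. Depending on the comparison, 1.09% to 8.51% of all genes had such a p. Trim28, which KRAB zinc finger proteins recruit to silence retroelements and to keep imprints, was at 11.24 and 11.69 with anti-TEAD4, 11.95 and 12.02 in the mCherry-Trim21 mRNA pools, and 12.20 and 11.51 in the anti-GFP pools. The groups overlapped and the difference from both control groups was -0.46 ± 0.24 (adjusted p = 0.641). Trim24, a coregulator of nuclear receptors, stayed between 11.64 and 12.02 in all 6 pools. Trim33, which acts with SMAD factors in TGF-beta and nodal signalling, was at 11.43 and 10.75 with anti-TEAD4 and at 10.61 to 11.13 in the controls, again with overlap.

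Partners of TRIM28 in silencing were measured as a list of 8 genes, all above the receptor level. Both anti-TEAD4 pools were below all controls for 3 of them (12.5% of genes above that level were), and 1 was lower at an unadjusted p under 0.05 against both control groups (4.45% of all genes were). That one was Cbx1, which encodes a heterochromatin protein, at 9.09 and 9.65 with anti-TEAD4 and at 9.92 to 10.27 in the controls (-0.72 ± 0.20, adjusted p = 0.474). The H3K9 methyltransferase Setdb1 was at 7.68 and 8.05 against 8.11 to 8.43, and the imprint regulator Zfp57 at 5.86 in both pools against 5.89 to 6.35. Morc3 overlapped, with 9.05 and 8.90 against 8.24 to 8.91. The median of this list was -0.07, beside -0.055 over all genes above the receptor level.

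The Trim43 copies of chromosome 9, a tandem family of the early embryo, were above the receptor level in every pool. Trim43a was at 12.45 and 13.27 with anti-TEAD4 and at 13.03 to 13.14 in the controls. Trim43b was at 11.22 and 11.65 against 11.15 to 11.57, and Trim43c at 9.73 and 10.48 against 10.09 to 10.45. For all 3 copies the anti-TEAD4 a pool was lower than the b pool, as in 64.7% of all genes above the receptor level. For Trim43a and Trim43c the controls lay between the anti-TEAD4 pools. As related copies their probes may share signal, which was not tested, and the 3 may not be separate measurements. Trim52 of the same list stayed between 6.19 and 6.50, and 0 of its 7 measured genes had an unadjusted p under 0.05. Among all genes 8.51% had one against both control groups.

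**Figure D4:**
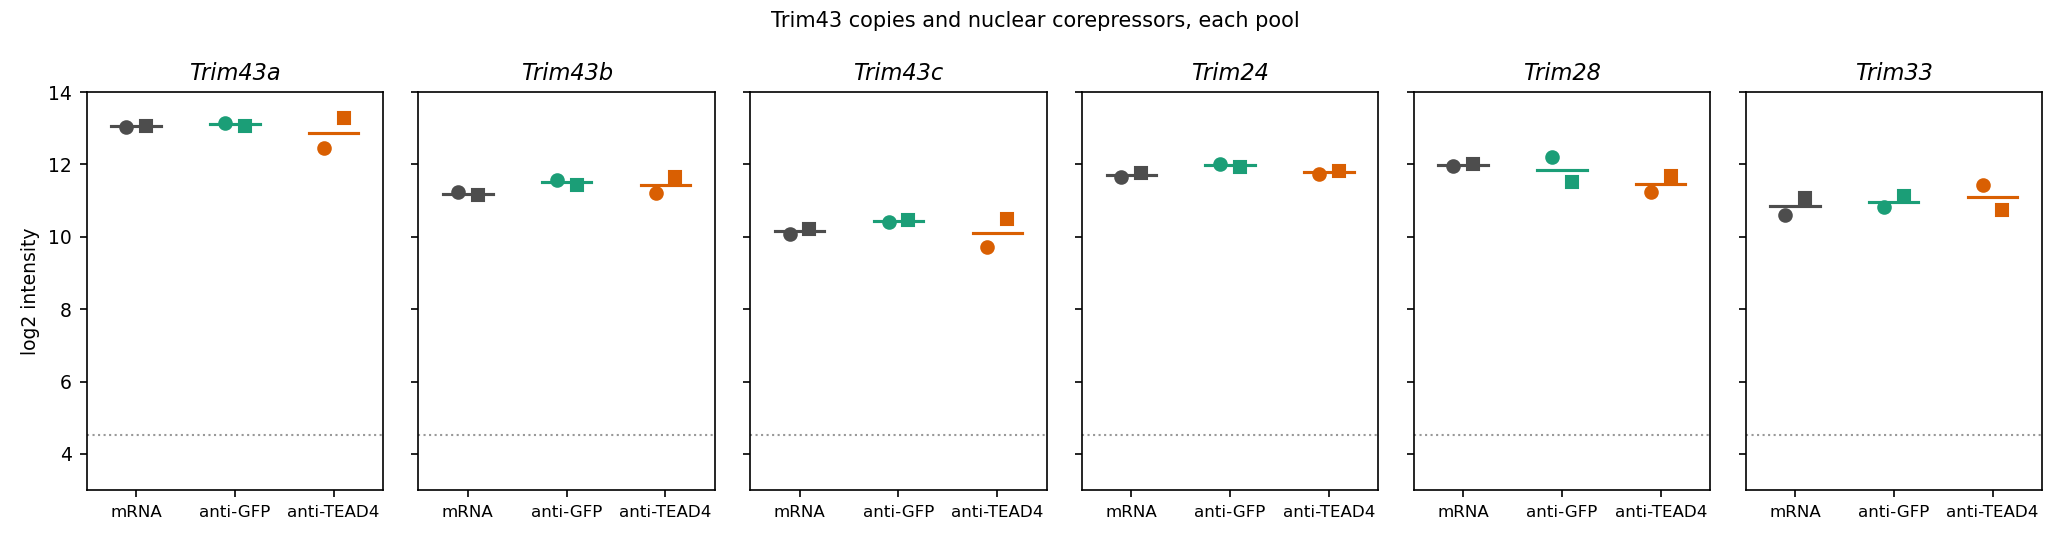
Log2 intensity of the Trim43 copies and of Trim24, Trim28 and Trim33 in each pool (circle, pool a; square, pool b; line, mean of 2 pools; dotted line, the receptor level of 4.53). The anti-TEAD4 pools overlap the controls for Trim43b, Trim24 and Trim33, and lie on both sides of them for Trim43a and Trim43c.

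In the list of innate sensing and signalling members, 10 of 15 were above the receptor level, and Trim25 was the only one with an unadjusted p under 0.05. Against both control groups 8.51% of all genes had such a p. Trim8, which modulates JAK-STAT and NF-kB signalling, was at 8.39 and 8.99 with anti-TEAD4 and at 8.87 to 9.57 in the controls (-0.63 ± 0.28, adjusted p = 0.599). Only its a pool was below all controls. Trim56, an antiviral ligase, was at 4.69 and 4.64 with anti-TEAD4 and at 4.70 to 5.06 in the controls, just below them and near the receptor level.

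The remaining role groups held no member above the receptor level with an unadjusted p under 0.05 except Trim7. As given above, 8.51% of all genes had such a p against both control groups. Among the NHL-repeat members, Trim32 was at 6.97 and 6.73 with anti-TEAD4 and at 6.46 to 6.62 in the controls, above all of them (0.31 ± 0.13, adjusted p = 0.595). Trim71, an RNA-binding regulator that let-7 miRNAs repress, stayed between 7.25 and 7.46 in all 6 pools, and Trim3 between 5.48 and 5.96. Trim37, which limits centriole assembly, was at 8.54 and 9.40 with anti-TEAD4 and at 9.33 to 9.64 in the controls, with the a pool below and the b pool inside their range. Trim59 had 6.39 and 6.81 against 6.16 to 6.54, and Trim39 had 6.45 and 6.79 against 6.70 to 6.85.

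Of the muscle and microtubule members 2 of 8 were above the receptor level: Trim54, at 5.19 and 5.28 with anti-TEAD4 and 4.99 to 5.14 in the controls, and Trim63, at 5.29 and 4.69 against 4.61 to 4.82. Both belong to the ligases of striated muscle. Trim41 ranged from 6.30 to 6.73, Trim11 from 5.83 to 6.14, Trim44 from 5.38 to 5.65 and Trim47 from 4.51 to 4.84, with overlap in each. Of the 35 members above the receptor level, 18 stayed within 0.5 log2 units and 27 within 1 over all 6 pools, and all 28 members not above it stayed within 1. These ranges were not counted over all genes, so no comparison with other genes is drawn.

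Partners of TRIM21 were read from a list of 20 genes, of which 14 were measured and all 14 were above the receptor level. The list held genes of the ubiquitin and proteasome pathway together with the antibody receptor gene Fcgrt. The conjugating enzyme partner Ube2v2 was the 1 with an unadjusted p under 0.05 against both control groups, where 8.51% of all genes had one. Ube2v2 was at 11.42 and 11.60 with anti-TEAD4 and 10.98 to 11.14 in the controls (0.41 ± 0.13, adjusted p = 0.514). Its partner Ube2n overlapped, with 12.66 and 13.22 against 12.56 to 13.00. Ube2w, which primes TRIM21 with a first ubiquitin, was at 6.38 and 7.24 against 7.18 to 7.47, and the segregase adaptor Nploc4 at 10.61 and 12.17 against 11.53 to 12.16. Fcgrt, the neonatal antibody receptor, was at 6.28 and 6.38 against 5.42 to 6.21. The median of the list was -0.04, beside -0.055 over all genes above the receptor level, and the proteasome subunit Psma1 stayed between 15.61 and 16.07.

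Genes of the interferon response, in which many TRIM genes are induced, had 20 of 22 measured and 7 above the receptor level. Ifnar2, a subunit of the type I interferon receptor, was at 5.64 and 5.56 with anti-TEAD4, 6.06 and 6.01 with anti-GFP, and 6.46 and 6.53 in the mCherry-Trim21 mRNA pools. The 3 groups did not overlap, and the difference from both control groups was -0.67 ± 0.12 (adjusted p = 0.310). Ifnar1, the other subunit, was at 6.37 and 7.41 against 7.20 to 7.62, and Stat2 at 4.58 and 5.47 against 5.07 to 5.92. Bst2, which tethers virions, was at 9.02 and 11.82 against 10.65 to 11.30, with the anti-TEAD4 pools on opposite sides of the controls. The induced genes Isg15, Ifit1, Ifit3, Mx1, Mx2, Rsad2, Usp18 and Irf7 were not above the receptor level.

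Of 5 family members with other symbols 2 were above the receptor level. Pml, the organizer of nuclear bodies, was at 5.61 and 6.47 with anti-TEAD4 and at 6.50 to 6.64 in the controls, below all of them (-0.56 ± 0.26, adjusted p = 0.610). Mid1, a microtubule-bound ligase, was at 6.90 and 7.18 with anti-TEAD4, 6.94 and 7.85 in the mCherry-Trim21 mRNA pools, and 7.63 and 9.74 in the anti-GFP pools, where the b pool was far above the other 5.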

How the data were processed

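RNA of 6 pools, 2 per group and each of 10 embryos, was hybridized to Affymetrix Mouse Transcriptome Arrays. The authors ran robust multiarray averaging (background correction, normalization and summary of probes) in the Affymetrix Expression Console (version not given in the sources used here) and deposited log2 intensities with 2 decimals. Scanner files were not used here. Linear units (AU) were obtained by raising 2 to these log2 intensities. Of 65956 rows, 1 (that of 1700019E08Rik) was dropped for holding, on 1 array, a number that no log2 intensity can reach, and 30637 carried 1 gene symbol. The number of arrays limits the precision.

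All 6 arrays entered a limma 3.58.1 fit of 3 group means in R 4.3.3 (3 residual and 2.517 prior degrees of freedom), with Benjamini-Hochberg adjustment over all 30176 genes and a threshold of 0.05. No filter on dim genes was applied. Gata3 was read from a row with several symbols. The steps were tested on simulated data. Promoters were read with Python 3.11.15 and pandas 2.3.3.

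The members, gene lists and the rule for named genes were chosen with earlier results of these data known. Named were Trim21 and members with an unadjusted p under 0.05 in any comparison. Members whose anti-TEAD4 pools both lay beyond the 4 controls were named if they differed from the control mean by 0.5 or more. Also named were those whose anti-TEAD4 pools differed by 1 or more and the 10 with the highest mean. The 4 highest per role group and the 4 largest differences per companion list were added. Others were chosen after their values were seen. Alternatives were leaving out each array, the replicate letter as a block, only the groups compared, an intensity trend, quantile normalization, median centring, a filter on dim genes, the mean of rows, rows with several symbols, the methods' t-test, and an unmoderated analysis of variance.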

Additional observations from a re-analysis of the deposited data

How the results depend on the processing

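In the limma fits that keep all 6 arrays, 0 members passed an adjusted p of 0.05 in any comparison. The methods' t-test at an unadjusted 0.01 passed 3 members (Trim25, Trim56 and Trim66) in anti-TEAD4 against mCherry-Trim21 mRNA, where it passed 0.941% of all genes, and 1 (Trim7) against both control groups (2.33%), with 0 in the remaining comparisons; after Benjamini-Hochberg adjustment it passed 0 members. Leaving out each array in turn gave 0 to 4 called members in anti-TEAD4 against mCherry-Trim21 mRNA, 0 to 4 against anti-GFP, 0 to 7 against both control groups and 0 to 0 in anti-GFP against mCherry-Trim21 mRNA. The calls all came without the anti-TEAD4 b pool, when the single a array is assumed to vary like the other groups and 13.3% of all genes passed against both control groups: Trim7, Trim21, Trim23, Trim30c, Trim37, Trim43a and Trim45. The counts at an unadjusted p under 0.05, an alternative chosen after seeing the data, ranged in the same order of comparisons from 2 to 15, 2 to 19, 3 to 21 and 0 to 1. The highest 3 counts came without the anti-TEAD4 b pool, when 29.1%, 29.5% and 32.2% of all genes passed.

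Trim21 without each array ranged from 2.74 to 4.23 in anti-TEAD4 against mCherry-Trim21 mRNA, from 1.33 to 2.82 in anti-GFP against mCherry-Trim21 mRNA, from 1.09 to 1.73 in anti-TEAD4 against anti-GFP and from 2.08 to 2.82 against both control groups. It passed without the anti-TEAD4 b pool in the first (3.81, adjusted p = 0.0329) and last (2.77, adjusted p = 0.0406).

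The members' median moved with the scaling, and with it that of all genes, which against both control groups went from 0.058 to -0.043 after quantile normalization and -0.075 after median centring. Against mCherry-Trim21 mRNA it was 0.09, with -0.026 after quantile normalization, -0.05 after median centring and -0.05 for genes above the receptor level; against anti-GFP 0.015, with -0.072, -0.11 and -0.07; against both control groups 0.07, with -0.035, -0.065 and -0.053. For anti-GFP against mCherry-Trim21 mRNA it was 0.04, and -0.02 above the receptor level. Leave-one-out medians ranged from 0 to 0.11, -0.015 to 0.04, -0.007 to 0.075 and 0.01 to 0.04. Counts at an unadjusted p under 0.05 became 5 after quantile normalization in anti-TEAD4 against mCherry-Trim21 mRNA (7.09% of all genes). For anti-GFP against mCherry-Trim21 mRNA the count was 2 in the analysis of variance (2.09% of all genes). Against both control groups it was 3 above the receptor level (9.49% of genes above it). There it was 7 after quantile normalization (9.06% of all genes) and 6 after median centring (7.89%). It was also 6 with the mean of rows (8.51%) and the unmoderated analysis of variance (7.13%). The cause was not tested. The replicate letters do not pair the pools (correlations of a minus b of -0.51, 0.21 and -0.25 between groups), and with them as a block 0 members passed and the count at an unadjusted p under 0.05 against both control groups was 4 in place of 5. The 2 arrays per group limit the precision.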
